A study of Mus musculus with 9 samples.

Results

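Chemokines are small secreted proteins that draw leukocytes along a gradient by binding G protein-coupled receptors, and 10 of them other than Cxcl12 are described here in 3 mouse stromal cell lines. They are the monocyte chemoattractants Ccl2 and Ccl7, the eosinophil chemoattractant Ccl11, and the T cell and monocyte chemoattractant Ccl5. The others are the neutrophil chemoattractants Cxcl1 and Cxcl5, the interferon-induced Cxcl10, and Ccl8, Cxcl14 and Cx3cl1. The genes were taken by symbol, and each of their probe sets annotated with that single symbol was used, which gave 13 probe sets of 36701 that are not controls and 10 genes of 15964. Of the 13, 12 lie on the array type MG-U74A and 1 on MG-U74B, and the third type, MG-U74C, holds 0.

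In the haematopoietic stroma, chemokines made by mesenchymal cells are known in mice to regulate the release of monocytes and neutrophils from the bone marrow. Most genes of this group are induced in fibroblastic cells through the transcription factor NF-kB by interleukin-1, tumour necrosis factor or Toll-like receptor signals, and Cxcl10 also by interferons. Cxcl14 is usually counted as a homeostatic chemokine, and Cx3cl1 is made as a membrane-anchored protein that metalloproteinases can release.

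Each line gave total RNA for 1 array of each of 3 Affymetrix types, 9 arrays in all. AGM-s3-A9 is a stromal line of the aorta-gonad-mesonephros (AGM) region of the embryo that supports haematopoiesis, OP9 is a supportive stromal line from newborn mouse calvaria, and AGM-s3-A7 is an AGM line without that capacity. No treatment is given for any of them. OP9 is known as a line from op/op mice, which lack functional macrophage colony-stimulating factor, so OP9 and AGM-s3-A7 differ in origin and genotype as well as in supportive capacity.

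With 1 array per line and type there is no replicate spread and no p-value, and the number of arrays limits the precision. Values are linear intensities after quantile normalization of the 3 arrays of a type. Intensities of different probe sets depend on the probes and do not rank genes by transcript number. A probe set counts as measured above a detection level of 49.0 on MG-U74A and 52.8 on MG-U74B, which is the higher of the median intensity and the 95th percentile of 34 negative control probe sets. On MG-U74A this is the median, so by construction 50.1% of all probe sets that are not controls pass it in each line. The share is about 34% on MG-U74B and 13.4% on MG-U74C. Values below that level were raised to it before a ratio was formed, and a fold against such a line is a lower bound. As a measure of error, the log2 ratios of probe sets for the same gene on MG-U74A spread with robust SDs of 0.30 for AGM-s3-A9 over AGM-s3-A7 (617 genes), 0.30 for OP9 over AGM-s3-A7 (609 genes) and 0.33 for AGM-s3-A9 over OP9 (619 genes). These SDs compare probe sets on the same arrays and leave out the spread between cultures.

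Some of the chemokine genes were above the detection level in all 3 lines and some in none, and OP9 had the lowest reading of most members measured. Of the 10 genes, 5 were above the detection level in all 3 lines (Ccl2, Ccl7, Cxcl1, Cxcl5 and Cx3cl1), and 3 were below it in every line (Ccl8, Ccl11 and Cxcl10). Ccl5 was above it in both AGM lines and Cxcl14 in AGM-s3-A9 alone. Over all genes by their brightest probe set, 8582 of 15964 were above the level in AGM-s3-A9 or AGM-s3-A7. That share covers only the AGM lines and takes in all 3 array types. On MG-U74A, which holds 12 of the 13 member probe sets, 50.1% pass in each line by construction. The share of all genes above the level in all 3 lines was not counted, so the 5 of 10 is no result about chemokines. Among the 7 genes measured in at least 1 line, OP9 had the lowest reading of the brightest probe set for 6, and AGM-s3-A7 for Cxcl14, whose readings in OP9 and AGM-s3-A7 were both below the detection level. AGM-s3-A9 had the highest for 5, and AGM-s3-A7 for Cxcl1 and Cxcl5. The same counts were not made over all genes, so they are not read as a trait of the chemokines. The order within Ccl2 and Cxcl1 between the AGM lines, and within Cxcl5 between AGM-s3-A9 and OP9, changes with the scaling of the arrays. In RNA of a whole culture, fewer cells making a transcript and less of it per cell cannot be told apart.

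**Figure D1:**
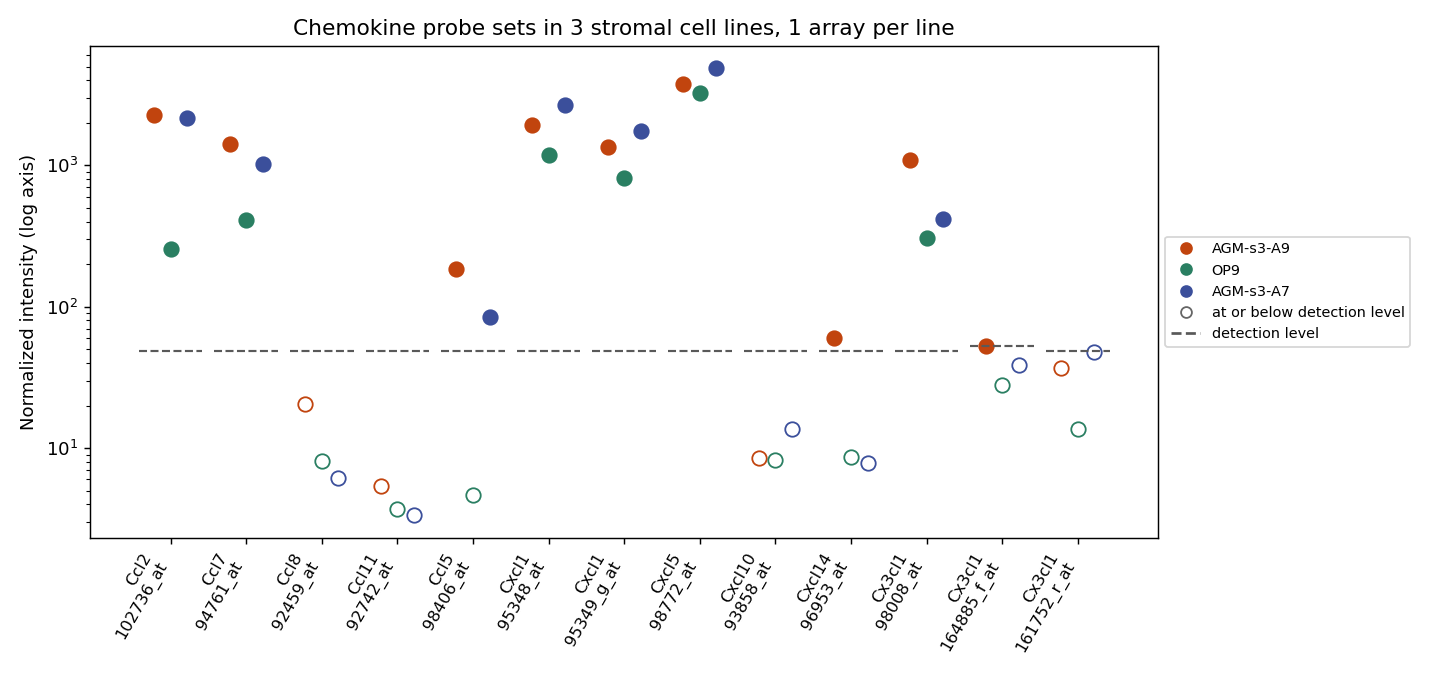
Normalized intensity (log axis) of the 13 chemokine probe sets in AGM-s3-A9, OP9 and AGM-s3-A7, 1 point per array, with open points at or below the detection level (dashed). Ccl2, Ccl7, Cxcl1 and Cxcl5 stand far above the dashed level in all 3 lines, while Ccl8, Ccl11 and Cxcl10 lie below it in all 3.

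Among the monocyte chemoattractants, Ccl2, the main ligand of the receptor Ccr2, showed the largest difference of the group among pairs of lines that were both above the detection level. Its probe set 102736_at read 2269 in AGM-s3-A9, 256 in OP9 and 2147 in AGM-s3-A7. The AGM lines thus differed by 1.06-fold, which is within 1 robust SD, and OP9 lay apart from both. Ccl2 was 8.37-fold lower in OP9 than AGM-s3-A7 (log2 ratio -3.07) and 8.85-fold higher in AGM-s3-A9 than in OP9.

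Ccl7, another Ccr2 ligand, had the same order of lines with a smaller range. Its probe set 94761_at read 1412 in AGM-s3-A9, 408 in OP9 and 1029 in AGM-s3-A7. It was 2.53-fold lower in OP9 than AGM-s3-A7 and 3.46-fold higher in AGM-s3-A9 than in OP9. Between the AGM lines the difference was 1.37-fold, or 1.52 robust SDs.

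Ccl8, in mice a ligand of Ccr8, read 20.4 in AGM-s3-A9, 8.15 in OP9 and 6.12 in AGM-s3-A7, below the detection level throughout. Ccl11, also called eotaxin, a ligand of Ccr3, read 5.42, 3.74 and 3.35 in the same order of lines. No fold is given for either. In the RefSeq gene order of assembly GRCm38.p6, the protein-coding genes Ccl2, Ccl7, Ccl11, Ccl12, Ccl8 and Ccl1 follow each other on chromosome 11 with no other protein-coding gene between them. Of these 6 neighbours, Ccl2 and Ccl7, the pair at one end, were above the detection level, and the brightest probe sets of the other 4 were below it in all lines. Ccl12 read 6.09 in AGM-s3-A9, 2.88 in OP9 and 5.32 in AGM-s3-A7.

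Ccl5, also known as RANTES, had different readings in the 3 lines. Its probe set 98406_at read 185 in AGM-s3-A9, 4.68 in OP9 and 84.2 in AGM-s3-A7. OP9 was below the detection level, and both AGM lines were above it. Ccl5 was 2.19-fold higher in AGM-s3-A9 than AGM-s3-A7, at least 3.77-fold above OP9 in that line, and at least 1.72-fold lower in OP9 than AGM-s3-A7. The last bound does not reach 2-fold. Ccl9, the protein-coding gene next to Ccl5 on chromosome 11 and a CC chemokine of myeloid cells, had its highest reading in OP9, at 488 in AGM-s3-A9, 1325 in OP9 and 199 in AGM-s3-A7.

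The neutrophil chemoattractants Cxcl1 and Cxcl5, ligands of Cxcr2, had their highest normalized readings in AGM-s3-A7, by less than 2-fold over AGM-s3-A9. The probe set 95348_at of Cxcl1 read 1943 in AGM-s3-A9, 1184 in OP9 and 2684 in AGM-s3-A7. The second probe set, 95349_g_at, was designed on the same sequence record and read 1354, 820 and 1749 in the same order, so it is no independent measurement. Cxcl1 was 2.27-fold lower in OP9 than AGM-s3-A7 on the first and 2.13-fold lower on the second. In AGM-s3-A9 it was 1.38-fold lower than AGM-s3-A7 on 95348_at, or 1.56 robust SDs, and this difference disappears in the values as deposited, where AGM-s3-A9 reads 2528 and AGM-s3-A7 2494.

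Cxcl5 read 3748 in AGM-s3-A9, 3239 in OP9 and 4860 in AGM-s3-A7 on 98772_at. In AGM-s3-A9 it was 1.30-fold lower than AGM-s3-A7, and as deposited these lines read 4372 and 4585. No pair of lines differed by 2-fold, and the widest difference was a log2 ratio of -0.59 for OP9 over AGM-s3-A7. The genes Cxcl5 and Cxcl1 lie at both sides of Ppbp, Pf4, Cxcl3 and Cxcl15 on chromosome 5, with Cxcl2 next to Cxcl1. Cxcl2, another Cxcr2 ligand, read 6.37 in AGM-s3-A9, 4.63 in OP9 and 13.1 in AGM-s3-A7, below the detection level. Ppbp, Pf4 and Cxcl15 were also below the level of their array type in all 3 lines, and Cxcl3 had no probe set with that single symbol.

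Cxcl10, the interferon-induced ligand of Cxcr3, was below the detection level in all lines, at 8.50 in AGM-s3-A9, 8.27 in OP9 and 13.7 in AGM-s3-A7. Cxcl9, a further Cxcr3 ligand, was also below it, with 1.99 in AGM-s3-A9, 1.62 in OP9 and 1.92 in AGM-s3-A7. Cxcl14 was above the detection level in AGM-s3-A9 only, at 59.8, against 8.68 in OP9 and 7.80 in AGM-s3-A7. The highest negative control reading on MG-U74A was 59.5, so the AGM-s3-A9 reading hardly stands above the controls. Since the detection level is 49.0, the bound is at least 1.22-fold, and the gene is not counted as different.

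Promoter sequences are shown for Cxcl1, which was high in every line, for Cxcl10, which was detected in none, and for Cx3cl1, which was higher in AGM-s3-A9, because these 3 differ in their expression across the lines and in the motif letters they carry. Each is the 300-base window around the annotated gene start from RefSeq (GRCm38.p6), 5′ to 3′, in lower case with every motif match in capitals. RefSeq windows of this kind were at hand for 5 of the 10 genes, the others being Ccl8 and Cxcl14. The motifs searched on both strands were the NF-kB consensus, the core of the interferon-stimulated response element (ISRE), the AP-1 site TGANTCA and the TATA box core TATAAA.
Cxcl1 (chr5:90890995-90891294, plus strand): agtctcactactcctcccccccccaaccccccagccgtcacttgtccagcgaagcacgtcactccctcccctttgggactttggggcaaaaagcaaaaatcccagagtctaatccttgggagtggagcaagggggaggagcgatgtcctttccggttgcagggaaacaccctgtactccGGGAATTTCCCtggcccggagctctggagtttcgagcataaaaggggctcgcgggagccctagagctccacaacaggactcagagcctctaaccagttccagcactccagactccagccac
Cxcl10 (chr5:92348840-92349139, minus strand): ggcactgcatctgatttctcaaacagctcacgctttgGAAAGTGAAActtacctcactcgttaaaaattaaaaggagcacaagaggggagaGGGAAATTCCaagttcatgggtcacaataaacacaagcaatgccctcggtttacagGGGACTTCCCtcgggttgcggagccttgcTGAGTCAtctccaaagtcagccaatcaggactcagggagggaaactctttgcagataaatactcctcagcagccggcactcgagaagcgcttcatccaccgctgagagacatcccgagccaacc
Cx3cl1 (chr8:94771930-94772229, plus strand): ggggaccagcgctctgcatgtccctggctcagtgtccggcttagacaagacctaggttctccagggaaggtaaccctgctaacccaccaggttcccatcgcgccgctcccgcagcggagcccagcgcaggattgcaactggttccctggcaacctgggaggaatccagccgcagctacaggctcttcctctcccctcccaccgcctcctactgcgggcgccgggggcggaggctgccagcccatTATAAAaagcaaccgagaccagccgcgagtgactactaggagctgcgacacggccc
The capitals in Cxcl1 mark 2 overlapping matches of the NF-kB consensus. Those in Cxcl10 mark 1 ISRE core match, 2 separate NF-kB matches and 1 AP-1 match. Cx3cl1 holds 1 TATAAA match and no match of the other motifs. Ccl8 has 1 TATAAA match and Cxcl14 1 ISRE core match. Of 32851 promoter windows of this length, 4.51% hold an NF-kB match, 3.44% a ISRE core match, 7.81% an AP-1 match and 13.6% a TATAAA match. The 3 promoters were picked with their expression and motif letters known, so the contrast between them is no result. A link between motif letters and expression was not tested.

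Cx3cl1, also called fractalkine, was with Ccl5 one of the members past 2-fold higher in AGM-s3-A9 than AGM-s3-A7. The probe set 98008_at read 1083 in AGM-s3-A9, 308 in OP9 and 416 in AGM-s3-A7. AGM-s3-A9 lay apart from the other lines, 2.60-fold above AGM-s3-A7 and 3.51-fold above OP9, which are 4.61 and 5.53 robust SDs. OP9 and AGM-s3-A7 differed by 1.35-fold, or 1.41 robust SDs.

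The other Cx3cl1 probe sets read just at the detection level or below it, where a 2-fold difference could not be seen. The probe set 161752_r_at read 37.1 in AGM-s3-A9, 13.7 in OP9 and 47.5 in AGM-s3-A7, below the detection level in all 3. On MG-U74B, 164885_f_at read 52.8 in AGM-s3-A9, 28.1 in OP9 and 38.7 in AGM-s3-A7, with AGM-s3-A9 just at the detection level of that type. The difference in Cx3cl1 therefore rests on 1 of 3 probe sets, and the others are too dim to test it. The median over its measured probe sets, a log2 ratio of 0.69 for AGM-s3-A9 over AGM-s3-A7, is under 2-fold. This median includes the ratio of 164885_f_at, which the detection level holds down.

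**Figure D2:**
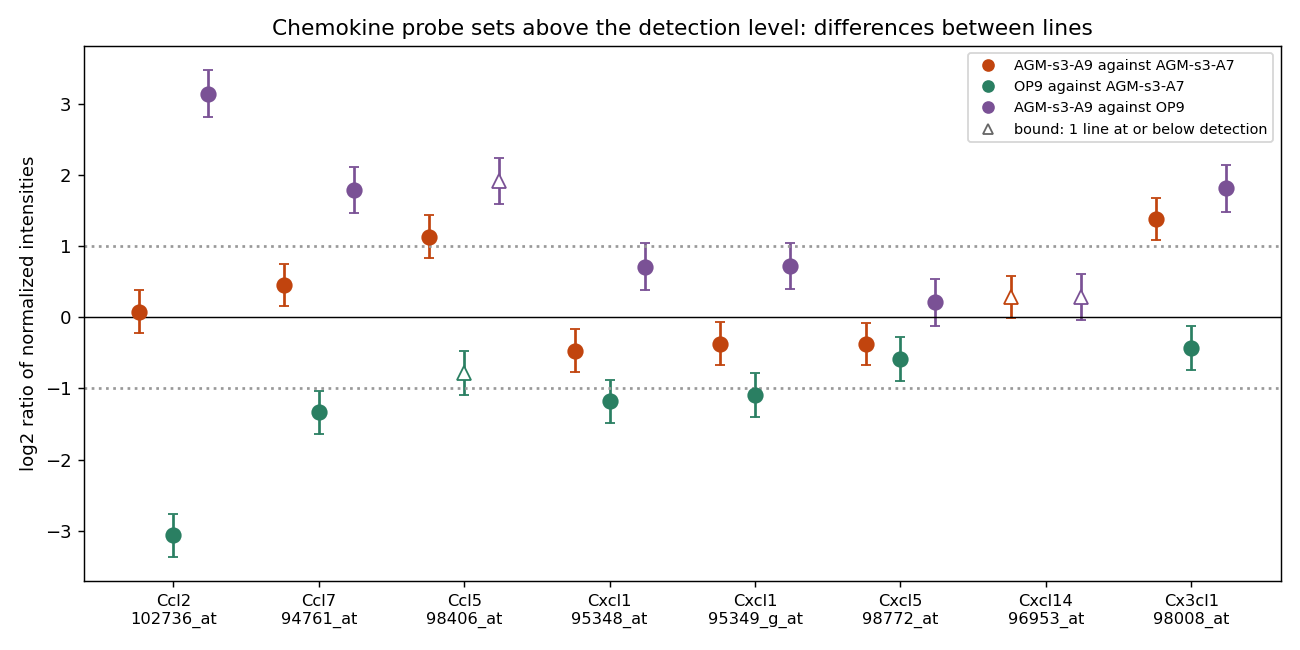
log2 ratios of the 8 chemokine probe sets of MG-U74A that were above the detection level in at least 1 line, for the 3 pairs of lines, with open triangles as lower bounds. Error bars are 1 robust SD between probe sets of the same gene, not replicate error, and dotted lines mark 2-fold. All OP9 against AGM-s3-A7 ratios lie below 0, with Ccl2 at -3.07, and all AGM-s3-A9 against OP9 ratios lie above 0, of which Cxcl5, at 0.21, is below 0 under other scalings (-0.09 at a common 75th percentile).

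Counted by probe set, 2 of the 9 measured were past 2-fold higher in AGM-s3-A9 than AGM-s3-A7 (Ccl5 and 98008_at of Cx3cl1) and 0 were lower. Over all 13143 measured probe sets, 2.88% were higher and 2.18% lower in this pair. The median log2 ratio of the 9 was 0.08, against -0.01 over all probe sets. In OP9 against AGM-s3-A7, 4 of 7 were lower (Ccl2, Ccl7 and both probe sets of Cxcl1) and 0 higher, against 5.52% lower and 4.77% higher of 13470. The median of the 7 was -1.09, against 0.03 over all. Cxcl1 enters this count and this median with both of its probe sets, which are no independent measurements. By the brightest probe set per gene, 3 of 6 genes were lower in OP9 than AGM-s3-A7 and 0 higher. The median of the 6 was -0.98, just under 2-fold. In AGM-s3-A9 against OP9, 4 of 9 were higher (Ccl2, Ccl7, Ccl5 and 98008_at) and 0 lower, against 5.96% higher and 4.63% lower of 13447. The median of the 9 was 0.72, against -0.03 over all. With other processing this median lay as high as 1.79, with the brightest probe set per gene, and that of AGM-s3-A9 over AGM-s3-A7 reached 0.60 with the values as deposited. Each line enters 2 of the 3 comparisons with the same arrays, so the counts are not independent of each other, and the members had to be above the detection level in 1 line of a pair to be counted.

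Between the AGM lines, Ccl2 and Cxcl1 changed sign with the scaling of the arrays. Ccl5, Ccl7 and Cx3cl1 stayed higher and Cxcl5 lower in AGM-s3-A9 under each scaling tried. Cxcl14 also stayed higher, but its AGM-s3-A7 reading is raised to the detection level, so its ratio could not be negative. On MG-U74A the AGM-s3-A9 array was brighter as deposited, with a median of 64.5, against 42.8 for OP9 and 42.7 for AGM-s3-A7. As deposited, the median log2 ratio of all measured MG-U74A probe sets was 0.62 for AGM-s3-A9 over AGM-s3-A7, and 97.8% of those past 2-fold were higher, against 60.1% after normalization. Scaling to the hybridization controls, which are added in known amounts, gave a median of 0.16 and a share of 81.7%. Relative to the median of all probe sets, the deposited log2 ratio of Ccl2 between the AGM lines was -0.02, that of Ccl5 1.23 and that of Cx3cl1 1.45. For AGM-s3-A9 against OP9 the deposited share was 93.7%, against 57.7% after normalization.

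**Figure D3:**
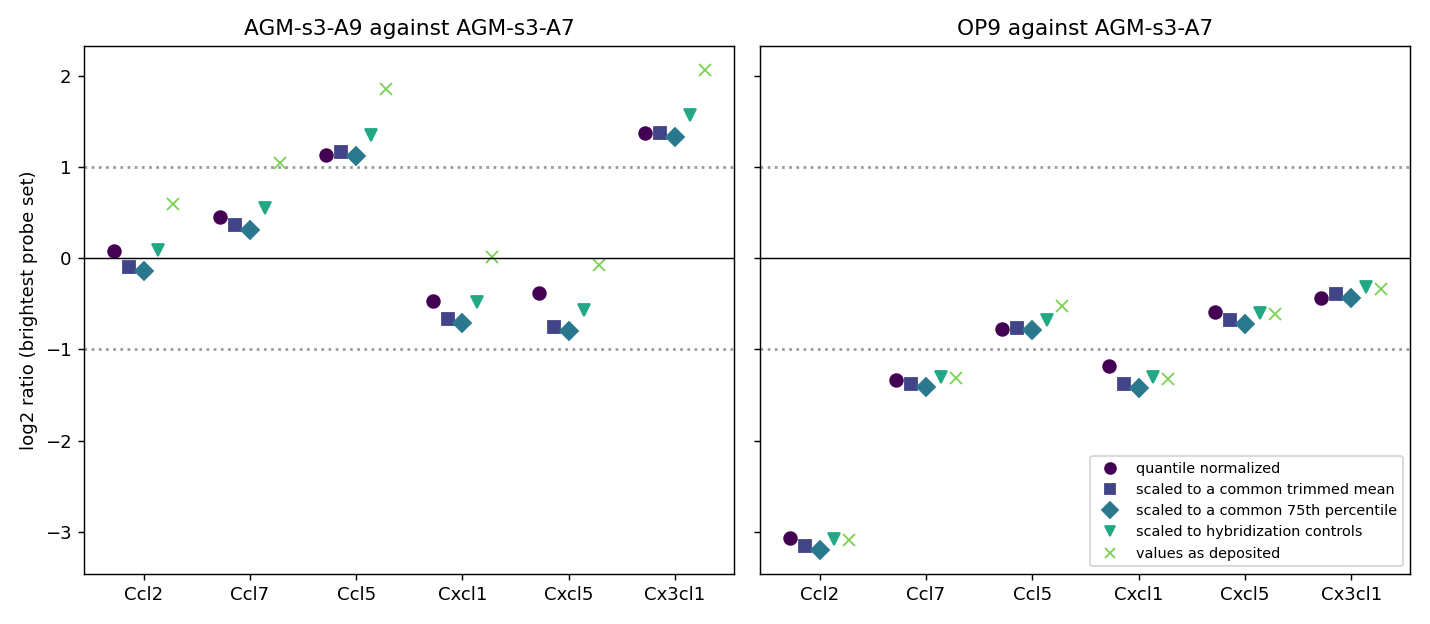
log2 ratios of the brightest probe set of 6 chemokine genes in AGM-s3-A9 against AGM-s3-A7 (left) and OP9 against AGM-s3-A7 (right) under 5 ways to scale the arrays, with 2-fold as dotted lines. Ccl2, Ccl7 and Cxcl1 stay past 2-fold lower in OP9 under all 5, Ccl5 and Cx3cl1 stay past 2-fold higher in AGM-s3-A9 under all 5, and Ccl2 in AGM-s3-A9 changes sign with the scaling.

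Other chemokine ligands were mostly not detected. Of 20 with a probe set, 3 were above the detection level in any line, namely Ccl9, Ccl22 and Cxcl16. For comparison, 8582 of all 15964 genes were above it in AGM-s3-A9 or AGM-s3-A7. Relative to AGM-s3-A7, Ccl9 was higher in both supportive lines, 2.45-fold in AGM-s3-A9 and 6.64-fold in OP9. Cxcl16, a membrane-anchored chemokine like Cx3cl1, read 153 in AGM-s3-A9, 62.1 in OP9 and 71.9 in AGM-s3-A7 on 1 of its 3 probe sets, 2.13-fold higher in AGM-s3-A9 than AGM-s3-A7. Over all genes by their brightest probe set, 3.06% were past 2-fold higher and 2.25% lower in AGM-s3-A9 than AGM-s3-A7, and 5.11% and 5.92% in OP9. For AGM-s3-A9 against OP9 these shares were 6.5% and 5.0%. Cxcl12, the chemokine that retains haematopoietic stem cells, read 4213 in AGM-s3-A9, 4860 in OP9 and 2712 in AGM-s3-A7 on its brightest probe set, so its lowest reading was in AGM-s3-A7 and not in OP9.

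Of 18 chemokine receptors with a probe set, 4 were above the detection level in any line. For comparison, 8582 of all 15964 genes were above it in AGM-s3-A9 or AGM-s3-A7. Ccr2, the receptor of Ccl2 and Ccl7, was below it in all lines, with 1.59 in AGM-s3-A9, 10.1 in OP9 and 2.87 in AGM-s3-A7. Cxcr2, the receptor of Cxcl1 and Cxcl5, was also below it, with 9.37, 9.74 and 9.63 in the same order. Cx3cr1, the receptor of Cx3cl1, was above it in all lines and read 67.9 in AGM-s3-A9, 110 in OP9 and 93.7 in AGM-s3-A7 on the brighter of 2 probe sets. Ackr3, an atypical receptor that takes up Cxcl12, read 78.6 in AGM-s3-A9, 3.52 in OP9 and 323 in AGM-s3-A7. The AGM-s3-A9 reading was 4.10-fold under that of AGM-s3-A7, and the OP9 reading at least 6.59-fold under it.

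Most of these chemokines are induced through the NF-kB pathway. Of 12 measured genes of that pathway, 4 were past 2-fold higher in AGM-s3-A9 than in OP9 and 0 lower, beside the 6.5% higher and 5.0% lower of all genes, and 8 did not reach 2-fold. Bcl3, a nuclear partner of NF-kB, read 232 in AGM-s3-A9, 19.9 in OP9 and 280 in AGM-s3-A7, a difference of at least 4.74-fold between AGM-s3-A9 and OP9 on 1 of 2 measured probe sets. Relb, a subunit of the alternative pathway, was 2.69-fold higher, and the inhibitor gene Nfkbie 2.25-fold higher on both of its measured probe sets. The last of the 4 was Nfkb2, named after its values were seen. Any part of these genes in the chemokine readings was not tested.

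Against AGM-s3-A7, 0 of the 12 NF-kB pathway genes differed by 2-fold in AGM-s3-A9. In OP9 2 were lower, Bcl3 (at least 5.70-fold, on 1 of 2 measured probe sets) and Nfkbiz, an inducible co-regulator (2.37-fold). Over all genes, 2.25% were lower and 3.06% higher in AGM-s3-A9, and 5.92% and 5.11% in OP9. Rela, the main activating subunit, read 885 in AGM-s3-A9, 733 in OP9 and 787 in AGM-s3-A7, with no pair of lines 2-fold apart. Nfkb1 had no probe set with that single symbol.

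Other NF-kB-responsive genes did not all follow the chemokines. Of 10 measured, 3 were lower and 2 higher in OP9 than AGM-s3-A7, and 3 were lower and 0 higher in AGM-s3-A9. Over all genes, 5.92% were lower and 5.11% higher in OP9, and 2.25% and 3.06% in AGM-s3-A9. In AGM-s3-A9 against OP9, 1 of the 10 was higher and 1 lower, beside 6.5% and 5.0% of all genes. The acute phase gene Saa3 read 1221 in AGM-s3-A9, 14.8 in OP9 and 4898 in AGM-s3-A7, an order with AGM-s3-A7 well above AGM-s3-A9. Cebpd, a transcription factor of the acute phase, was lower in both other lines, 2.54-fold in AGM-s3-A9 and 2.66-fold in OP9, and Lcn2 5.53-fold and 3.43-fold lower on 1 of 2 measured probe sets. Icam1, a leukocyte adhesion receptor, was lowest in AGM-s3-A7, with 76.2 in AGM-s3-A9, 257 in OP9 and 9.74 in AGM-s3-A7, at least 5.24-fold higher in OP9. Vcam1, another adhesion receptor, was 2.35-fold higher there on 1 of 3 measured probe sets.

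Among 17 measured receptors and mediators upstream of chemokine induction, 3 were lower and 1 higher in OP9 than AGM-s3-A7. The lower ones were Irf1, an interferon-regulatory transcription factor (2.60-fold), Il6st, the signalling chain of interleukin-6 receptors (2.18-fold, and likewise on 1 of 2 other measured probe sets), and Il1r1, the signalling receptor of interleukin-1 (2.04-fold). Il1r1 read 507 in AGM-s3-A9, 245 in OP9 and 500.4 in AGM-s3-A7, with the AGM lines 1.01-fold apart. Il1rn, the secreted antagonist of that receptor, was the higher one, 5.82-fold in OP9 and 4.37-fold in AGM-s3-A9. Over all genes, 5.92% were lower and 5.11% higher in OP9 than AGM-s3-A7.

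In AGM-s3-A9 against AGM-s3-A7, 2 of the 17 were higher, Il1rn and the interferon receptor gene Ifnar2 (2.80-fold on 1 of 2 measured probe sets), and 0 lower. Over all genes, 3.06% were higher and 2.25% lower in this pair. In AGM-s3-A9 against OP9, 3 of the 17 were higher and 1 lower, beside 6.5% and 5.0% of all genes. Tnfrsf1a, a receptor of tumour necrosis factor, read 460 in AGM-s3-A9, 540 in OP9 and 488 in AGM-s3-A7. Tlr4, the lipopolysaccharide receptor, read 61.6 in AGM-s3-A9, 66.4 in OP9 and 76.3 in AGM-s3-A7. Neither receptor differed by 2-fold between any pair of lines.

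Leukocytes also make some of these chemokines, and 9 of 11 leukocyte markers were below the detection level in all lines. The pan-leukocyte gene Ptprc read 1.44 in AGM-s3-A9, 2.31 in OP9 and 0.90 in AGM-s3-A7, and the myeloid integrin gene Itgam 3.46, 6.42 and 1.98 in the same order. The 2 above it were Cd14, which stromal cells can also express, in all 3 lines and Laptm5 in the AGM lines. The summed intensity of the 11 was 664 in AGM-s3-A9, 499.8 in OP9 and 711 in AGM-s3-A7, of which Cd14 gave 495, 298 and 503. Any part of leukocyte RNA in the chemokine readings was not tested. Endothelial markers were above the detection level for 0 of 6 genes, epithelial markers for 2 of 5 and stromal markers for 8 of 9. For comparison, 8582 of all 15964 genes were above it in AGM-s3-A9 or AGM-s3-A7.

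Of the 8 measured stromal markers, 3 were at least 2-fold lower in OP9 than AGM-s3-A7 and 0 higher, namely the collagen gene Col3a1, the surface marker gene Thy1 and the smooth muscle actin gene Acta2. Col3a1 read 3597 in AGM-s3-A9, 549.6 in OP9 and 3281 in AGM-s3-A7. The summed intensity of the 9 markers was 20506 in AGM-s3-A9, 10507 in OP9 and 20662 in AGM-s3-A7. Its largest parts were Col1a1, with 6684, 3539 and 6174 in the same order, and Col1a2, with 5001, 3379 and 5555. The sum thus does not describe each marker. Vim, a defining mesenchymal marker, was below the detection level in all lines on its 1 probe set. The other 5 measured markers did not differ by 2-fold between OP9 and AGM-s3-A7. Over all genes, 5.92% were lower and 5.11% higher in OP9. The part of the 3 lower markers in the chemokine readings was not tested.

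Cxcl5 was taken for a search of like patterns because its probe set had the highest mean intensity, which does not rank it by transcript number. The 5 genes closest to its pattern on MG-U74A were Kif2a, Wnt1, Ddx17, Col5a2 and Foxc2. Likeness was the distance between the log2 ratios of AGM-s3-A9 and OP9 to AGM-s3-A7, over 3 lines and 4494 candidate genes. The distances lay between 0.016 and 0.034, well under the robust SD between probe sets of a gene, so the order among the 5 has no weight. Since no pair of lines differed by 2-fold for Cxcl5, likeness to its pattern says little.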

How the data were processed

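For every array the authors deposited 1 linear intensity per probe set, from Affymetrix arrays of 3 types hybridised with biotinylated cRNA, per the labels' protocols. How scanner signals were background-corrected, summarised and scaled is not stated in the labels. The 2% trimmed means of the 3 arrays of a type differed by up to 61.1%, 49.8% and 49.7% on MG-U74A, MG-U74B and MG-U74C, over a limit of 5%, so log2 intensities were quantile normalized within each type. This removes any general shift between lines.

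Gene symbols came from the platform annotation: 29131 probe sets had 1 symbol, 724 several and 6846 none, and no gene was named from several. RefSeq GRCm38.p6, which held 99.8% of the symbols, gave gene order and promoter windows. Detection levels were computed per array type. The code (Python 3.11.15, numpy 2.4.6, pandas 2.3.3) was tested on simulated data. All members are named, and from each further list up to 4 genes by largest fold past 2-fold, plus Nfkb1, Rela, Il1r1, Tnfrsf1a, Tlr4 and Cxcl12. Other genes, such as chromosomal neighbours, receptors of the members, Nfkb2, Vcam1, Zfp36, Adam10 and cell type markers, were named after their values were seen. Members and lists were chosen with earlier results of these data known. No sample was left out, and alternatives changed the scaling, the detection level and the probe sets used.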

Additional observations from a re-analysis of the deposited data

How the results depend on the processing

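No paired analysis was possible because each line has 1 array per type. No replicate could be left out for the same reason. The counts of chemokine probe sets past 2-fold changed by at most 1.5 times under 8 alternatives, reaching 3 higher in AGM-s3-A9 than AGM-s3-A7 and 6 higher than in OP9 with the values as deposited. The median log2 ratio for AGM-s3-A9 over AGM-s3-A7 moved to 0.60 as deposited, close to the 0.62 by which all probe sets shifted. For AGM-s3-A9 against OP9 it moved to 1.34 as deposited, 1.22 with a common trimmed mean, 1.18 with the detection level at the highest negative control, 1.79 without probe sets marked by their ID suffix for possible cross-hybridisation or relaxed probe selection, 1.79 with the brightest probe set per gene, and 1.34 with hybridization control scaling, an alternative chosen after seeing the data. With 9 values or fewer, that median shifts with the probe sets counted. Of 160 single-gene values under these alternatives, 155 kept their sign and 142 moved by less than 1 robust SD. Many of these values could not move. On MG-U74A the detection level at the median is the main level itself. The other detection levels and probe set choices leave a bright gene with a single probe set unchanged. The shares are therefore no measure of stability, and only the scalings can shift every gene. Ccl2 lay between -3.20 and -3.07 in OP9 against AGM-s3-A7 over all settings. Control probe sets repeated on the 3 array types had an SD of the log2 ratio of 0.20 for the 17 bright ones and of 0.995 for the 49 dim ones, so readings near the detection level are weak.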

Other observations

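Genes that act on chemokine transcripts or proteins after transcription were measured beside the chemokines. Of 6 genes above the detection level, 5 differed by less than 2-fold between all pairs of lines. Zfp36, which destabilises AU-rich cytokine transcripts, read 146 in AGM-s3-A9, 160 in OP9 and 135 in AGM-s3-A7. Adam10, a metalloproteinase that sheds Cx3cl1, read 221 in AGM-s3-A9, 155 in OP9 and 266 in AGM-s3-A7. The exception was Mmp9, a gelatinase that can cleave chemokines, with 562 in AGM-s3-A9, 16.6 in OP9 and 116 in AGM-s3-A7, the other 2 of its 3 probe sets being below the detection level. Relative to AGM-s3-A7 this is 4.83-fold more in AGM-s3-A9, and in OP9 at least 2.37-fold less. Over all genes, 3.06% were past 2-fold higher in AGM-s3-A9 and 5.92% lower in OP9.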
